A study of Mus musculus with 10 samples.

Results

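Pre-mRNA splicing is carried out by the spliceosome and steered by RNA-binding proteins that choose which splice sites are used. The 59 genes described here encode such proteins in the mouse. They were chosen by symbol from 25232 genes in the authors' deposited table, as members of the families Srsf, Hnrnp, Sf3a and Sf3b, U2af, Ptbp, Rbfox, Celf, Nova and Elavl and a base mean of at least 10. Of 62 genes matching these names, Hnrnpa1 and Hnrnpa2b1 were left out by the rule. Of the 60 remaining, Hnrnpa1l2-ps2, whose name marks it as a pseudogene, had a base mean of 0.296 and was the single gene under the threshold. The members nearest the threshold, Celf6 at 366, Srsf12 at 380 and Sf3b5 at 423, lay far above it.

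RNA was sequenced in bulk from the spinal cord of 10 female mice of 90 days, labelled C57BL/6 and given as C57BL/6J in the methods, 5 labelled wild type (WT) and 5 labelled SOD1 G93A. Mice of the latter group bear many copies of a mutant human SOD1 transgene, taken from familial amyotrophic lateral sclerosis, beside their own Sod1 gene, so the line models an overexpressed mutant protein. The table has no row for the transgene and the values used here join both genotypes, so the genotype labels could not be checked. The lumbar cord is given as the tissue in the methods and the cord without a region in the labels. The labels name no treatment.

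The base mean, the unit of the values below, is the authors' mean over all 10 libraries of read counts divided by size factors. It joins both genotypes in 1 value for each gene. The values of single mice, the spread between them and the depth of each library were therefore not analysed here. No value below has an error or an n of its own, none separates SOD1 G93A from WT mice, and the order of 2 genes with close values cannot be told apart from the spread between mice. In bulk tissue, fewer cells of a type and less RNA per cell cannot be told apart.

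The tissue label was checked against marker genes. All 7 neuronal markers had base means of 4328 or more, led by Snap25 at 59050. The 5 motor neuron markers, among them Chat at 735, lay between 37.3 and 2316. All 5 oligodendrocyte markers lay between 5348 and 319615, all 5 astrocyte markers between 1944 and 56290, and all 5 microglial markers between 480 and 3041. All 6 caudal Hox genes, which mark the trunk and lumbar levels of the cord, lay between 152 and 536. The forebrain markers Emx1 and Tbr1 were at 0.993 and 3.60, and Neurod6 was at 78.9. The 3 skeletal muscle markers lay between 108 and 251. The part of these tissues in the levels below was not tested. Neurons and glia both contributed RNA, so a level below is a mixture over cell types.

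As background, the spliceosome recognises an intron by the 5′ splice site, the branch point and the 3′ splice site. U2AF binds the end of the intron, and the SF3a and SF3b complexes then hold the U2 small nuclear ribonucleoprotein on the branch point. SR proteins mostly bind exons and favour their inclusion, whereas many hnRNPs favour skipping. The Rbfox, Celf, Nova and neuronal Elavl proteins, together with Ptbp2, give neurons much of their own splicing programme. Defects of RNA-binding proteins are a recurrent theme in motor neuron disease.

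All 59 genes lay far above the threshold of 10. Their base means ran from 366 for Celf6 to 8365 for Hnrnpu, a 22.9-fold range, with a median of 1918 against 514 for the 15918 genes at or above the threshold of 10. Of the 59, 55 lay above that median, 39 in the upper 25% of those genes and 14 in the upper 10%. The 4 genes below the median were Celf6, Srsf12, Sf3b5 and U2af1l4. Together the 59 genes held 0.651% of the summed base means of the table, and the 10 highest among them held 40.3% of the members' sum. The 18 hnRNP genes accounted for 38.2% of that sum, the 11 SR genes for 16.3% and the 9 SF3 genes for 12.5%.

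**Figure D1:**
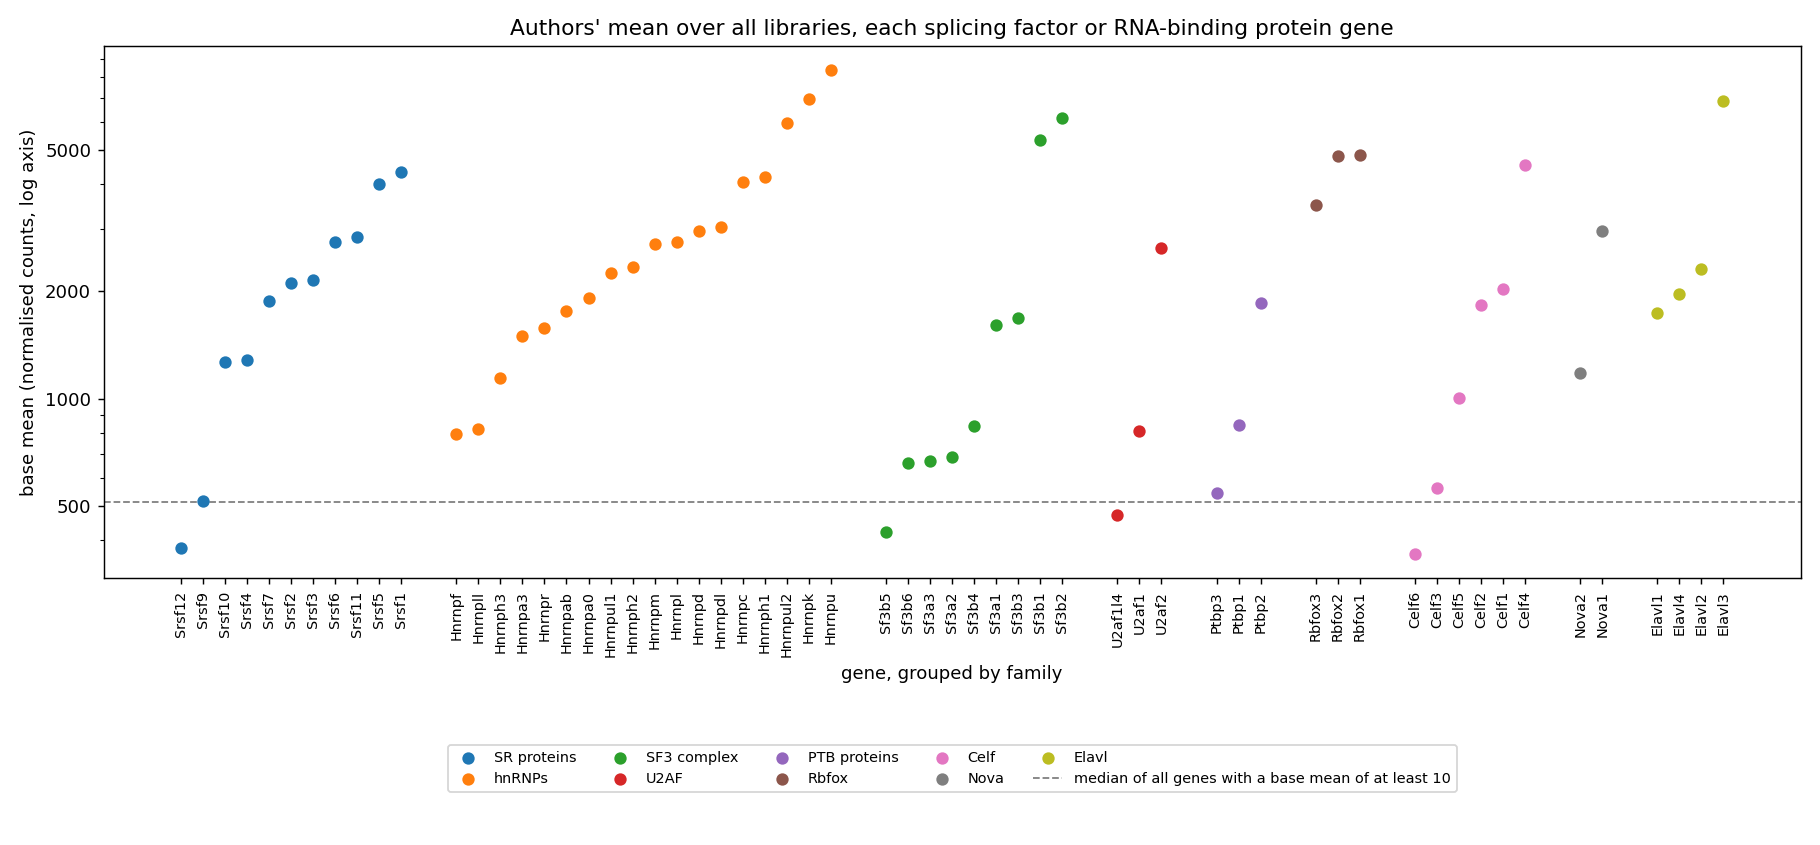
Base mean of each of the 59 genes (vertical log axis, normalised counts) ordered by level within its family (horizontal axis), 1 point a gene as the authors' mean over 10 libraries, with no error available. The dashed line is the median of 514 over the genes at or above a base mean of 10, and 4 genes lie under it.

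A longer transcript yields more fragments at the same number of molecules, so the base means count reads and do not rank the genes. Levels were compared between genes after dividing the base mean by length in kilobases (kb). The length was that of the merged exons of protein-coding transcripts, and the coding length was used as the alternative. On the first scale the median of the 59 genes was 537 against 171 for 14642 protein-coding genes at or above a base mean of 10, and 52 of the 59 lay above the latter. The median gene among the 59 stood at the 80.6 percentile per kb of exons and at the 84.0 percentile per kb of coding sequence. Across the 59, the range per kb of exons was 32.8-fold, from 73.7 for Hnrnpr to 2419 for Srsf5. The 5 highest on this scale were Srsf5, Sf3b2 at 1904, Hnrnpk at 1695, Hnrnph1 at 1664 and Rbfox1 at 1394, so that 4 different families were among them. Per kb of coding sequence the 5 highest were Elavl3 at 6237, Srsf1 at 5700, Hnrnpk at 5001, Srsf5 at 4946 and Srsf3 at 4371. Only Srsf5 and Hnrnpk were among the 5 highest on both scales.

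The SR proteins carry RNA recognition motifs and a tail of arginine and serine repeats whose phosphorylation sets where they act. Per kb of exons, Srsf5 stood at 2419 and Srsf2, which encodes the nuclear speckle protein SC35, followed at 1054. Srsf11, a relative that takes part in the splicing of neuronal microexons, was at 881 on this scale and Srsf3, which encodes the smallest SR protein, at 821. The lowest was Srsf12, a close relative of Srsf10, at 129. Srsf5 thus lay 18.7-fold above Srsf12 on this scale, and the gap was smaller per kb of coding sequence, at 4946 against 477. Per kb of coding sequence, Srsf1, the founding SR protein, took the first place with 5700, ahead of Srsf5. The exons of Srsf1 are 5558 bases long and only 759 of these are coding. As read counts, the base means of the 11 genes were 4326 for Srsf1, 4006 for Srsf5, 2842 for Srsf11, 2745 for Srsf6, 2151 for Srsf3, 2111 for Srsf2, 1876 for Srsf7, 1285 for Srsf4, 1271 for Srsf10, 514 for Srsf9 and 380 for Srsf12. Srsf7 encodes an SR protein with a zinc knuckle, and Srsf10 one that represses splicing when dephosphorylated.

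SR genes are known for regulating themselves. A poison exon, when included, brings a premature stop codon, and the transcript is removed by nonsense-mediated decay (NMD). The GENCODE M21 annotation of GRCm38, the assembly that mm10 denotes, lists an NMD transcript for 9 of the 11 SR genes (all but Srsf10 and Srsf12). The share was 27 of 59 genes (45.8%) over all families and 27.1% over the 14642 protein-coding genes. It is higher for genes with many annotated transcripts, and the members had a median of 8 transcripts against 5. Among genes with at least 5 transcripts, 25 of 45 members (55.6%) and 41.8% of the protein-coding genes had an NMD transcript. These are features of the annotation. How often such exons were included in these mice was not analysed here, since the table counts whole genes.

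**Figure D2:**
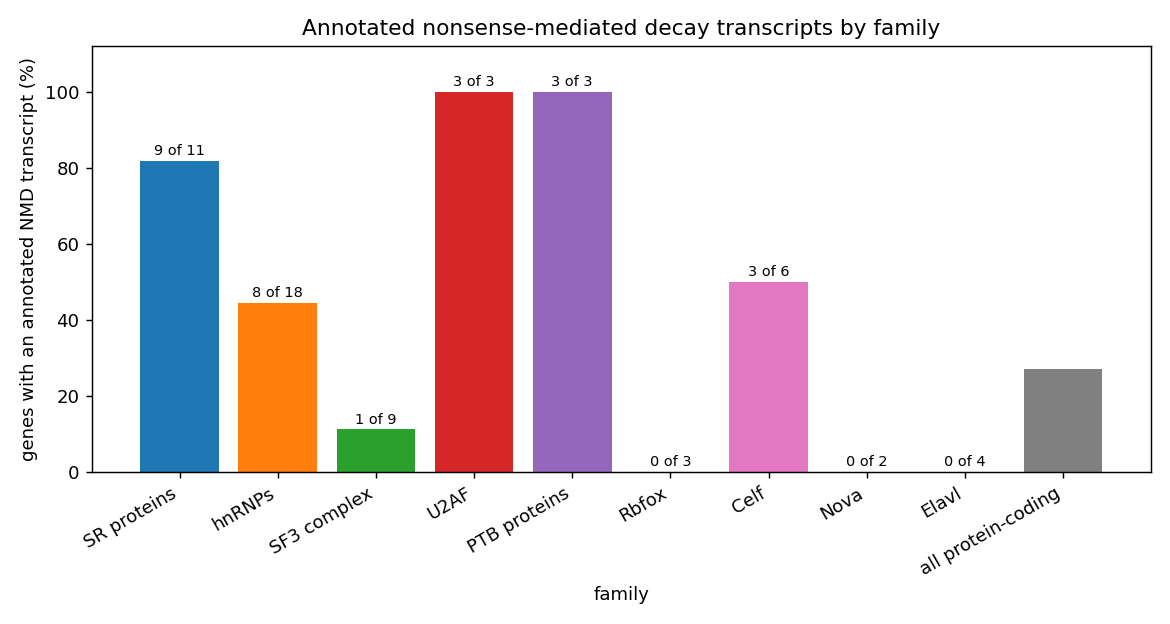
Share of genes in each family with at least 1 transcript annotated as a target of nonsense-mediated decay (vertical axis, %), with the number of genes above each bar and the 14642 protein-coding genes at or above a base mean of 10 as the last bar. The bars of the SR proteins, U2AF and PTB proteins stand at 81.8%, 100% and 100% against 27.1% for all protein-coding genes, while those of Rbfox, Nova and Elavl are at 0.

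In 9 genes (Srsf3, Srsf4, Srsf7, Srsf9, Srsf11, Hnrnpl, Hnrnpll, Sf3b1 and U2af1), an NMD transcript held an internal exon that overlaps no exon of a protein-coding transcript and contains the stop codon. There were 10 such exons, between 40 and 460 bases long, and for 7 of them the length was not a multiple of 3. No share over all genes stands beside these counts, so they do not set the members apart from other genes. The Rbfox, Nova and Elavl genes have no annotated NMD transcript and so could hold none. Of the 3 Celf genes with such a transcript, Celf2 and Celf6 had no such exon and Celf4 was not searched. The sequence around the stop codon is shown for each, since it is the feature that turns an ordinary exon into a poison exon. Sequences are written 5′ to 3′ on the strand of the gene with the stop codon in capitals, are taken from the GENCODE transcripts, stay within the exon and are located on GRCm38.
Srsf3, chr17:29039470-29039499, plus strand, exon of 456 bases: cttctcaccaccctcTGAatctgcattagc
Srsf4, chr4:131884373-131884402, plus strand, exon of 207 bases: tctcatgccccagctTAGagtgcttcaccc
Srsf7, chr17:80205042-80205071, minus strand, exon of 460 bases: ttgagtcagtcgcctTGAttcagaatgtca
Srsf9, chr5:115328411-115328440, plus strand, exon of 358 bases: attacggattcacagTAGaagtactccgga
Srsf11, chr3:158024197-158024226, minus strand, exon of 109 bases: ttccctggttcagccTGAactatataccag
Srsf11, chr3:158023298-158023327, minus strand, exon of 117 bases: acagcttttgaaagtTGAgagcacacccct
Hnrnpl, chr7:28817376-28817404, plus strand, exon of 70 bases: gtgctaactcactgtTGAagcgtccaatg
Hnrnpll, chr17:80044964-80044993, minus strand, exon of 83 bases: gaaagaagcccacttTGAaaatgtgttgct
Sf3b1, chr1:55014893-55014922, minus strand, exon of 56 bases: ttctattctgctgctTGAagtcagaactgc
U2af1, chr17:31651779-31651808, minus strand, exon of 40 bases: cacTGActcaactgaagcgatcgatcgtca
The stop is TGA in 8 of the 10 exons and TAG in the other two. In U2af1 the stop begins at base 4 of the exon, so the reading frame closes almost as soon as the exon is entered, whereas in Srsf4 it begins at base 113. The 3 longest exons belong to SR genes, namely Srsf7, Srsf3 and Srsf9.

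The hnRNPs package nascent transcripts and were the largest family, with 18 genes. Hnrnpk, which binds cytosine-rich RNA through KH domains, was the highest of the family at 1695 per kb of exons, followed by Hnrnph1, which binds runs of guanine, at 1664. Hnrnpul2, a relative of the nuclear scaffold protein Hnrnpu, was at 1161 per kb, Hnrnpdl at 1101 and Hnrnpu itself at 1095. The guanine-binding group was uneven, since against 1664 for Hnrnph1 the levels per kb of exons were 537 for Hnrnph2, 467 for Hnrnph3 and 279 for Hnrnpf. Per kb of coding sequence the order was the same, with 2951 for Hnrnph1, 1740 for Hnrnph2, 1100 for Hnrnph3 and 640 for Hnrnpf. The ratios of Hnrnph1 to each of the others were smaller on this scale. Hnrnpl, which binds CA repeats, was at 1029 per kb and its paralog Hnrnpll at 264. Hnrnpr, whose protein is known to carry mRNA in motor axons, was the lowest at 73.7 per kb. Its exon length is 21483 bases, and per kb of its 1896 coding bases it stood at 835 and no longer came last. That place was then held by Hnrnpll at 464.

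As read counts, the base means were 8365 for Hnrnpu, 6962 for Hnrnpk, 5944 for Hnrnpul2, 4178 for Hnrnph1 and 4066 for Hnrnpc, which binds runs of uridine and keeps U2AF from cryptic sites. They were 3029 for Hnrnpdl and 2960 for its relative Hnrnpd, the AU-rich element protein AUF1. Further down they were 2758 for Hnrnpl, 2717 for Hnrnpm, 2344 for Hnrnph2, 2259 for Hnrnpul1, 1918 for Hnrnpa0, 1765 for Hnrnpab, 1582 for Hnrnpr, 1501 for Hnrnpa3, 1142 for Hnrnph3, 822 for Hnrnpll and 797 for Hnrnpf.

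The SF3 genes encode subunits that work in fixed complexes, and their transcript levels were far from equal. Per kb of exons the 9 genes spanned 17.3-fold, from 110 for Sf3b5 to 1904 for Sf3b2. Sf3b1, which encodes the large subunit that clamps the branch point, was second at 861 per kb. The other seven lay at 558 or lower. The low place of Sf3b5, which encodes the smallest subunit, depended on the length, since its single exon has 3841 bases and per kb of coding sequence it stood at 1639. On the coding scale Sf3b2 remained first at 2329, followed by Sf3b6, the small protein next to the branch point, at 1755, and Sf3a3 was the lowest at 446. As read counts, the base means were 6134 for Sf3b2, 5333 for Sf3b1, 1679 for Sf3b3, 1615 for Sf3a1, 839 for Sf3b4, 683 for Sf3a2, 670 for Sf3a3, 658 for Sf3b6 and 423 for Sf3b5.

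U2AF is a dimer of a large subunit, which reads the polypyrimidine tract, and a small one, which reads the AG at the end of the intron. The large subunit gene U2af2 was at 1170 per kb of exons, the small subunit gene U2af1 at 731 and U2af1l4, a paralog of the small subunit, at 517. Their base means were 2643, 813 and 472. The order was the same per kb of coding sequence, at 1855, 1134 and 715. U2af1l4 spans 2065 bases and has 34 annotated transcripts, of which 8 are NMD transcripts, the largest number among the 59 genes.

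Several of the families pair a gene that is used in most tissues with paralogs enriched in neurons, and both kinds are set side by side here. In the PTB family, Ptbp1 represses neuronal exons in progenitors and non-neuronal cells, and neurons replace it by Ptbp2. Ptbp2 had a base mean of 1851, Ptbp1 of 845 and Ptbp3, best known from blood cells, of 542. Divided by exon length, Ptbp2 was at 377 per kb, Ptbp1 at 245 and Ptbp3 at 74.8. The ratio of Ptbp2 to Ptbp1 was 1.54 per kb of exons and 2.29 per kb of coding sequence.

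The Elavl proteins bind AU-rich RNA. Elavl1, or HuR, is found in most cells, and Elavl2, Elavl3 and Elavl4, or HuB, HuC and HuD, mark neurons. Their base means were 1740 for Elavl1, 2317 for Elavl2, 6867 for Elavl3 and 1961 for Elavl4. Elavl3 led the family with 997 per kb of exons, ahead of Elavl2 at 487, Elavl4 at 411 and Elavl1 at 300. The 3 neuronal genes summed to 6.32 times the level of Elavl1 per kb of exons and 5.58 times per kb of coding sequence. Singly, Elavl3 was 3.33 times Elavl1, Elavl2 1.63 times and Elavl4 1.37 times per kb of exons. The last of these ratios turned to 0.954 per kb of coding sequence.

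The Rbfox proteins bind UGCAUG, and Rbfox3 is the antigen NeuN by which neurons are stained. The base means were 4846 for Rbfox1, 4806 for Rbfox2, which is also expressed outside neurons, and 3498 for Rbfox3. Rbfox1 was at 1394 per kb of exons, Rbfox3 at 711 and Rbfox2 at 665. Rbfox1 was 2.1 times Rbfox2 on this scale and 1.09 times per kb of coding sequence. Rbfox3 was 1.07 times Rbfox2 per kb of exons and 0.874 times per kb of coding sequence, so the direction of this pair depended on the length used.

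The Celf proteins bind GU-rich RNA. Celf1 and Celf2 are expressed in many tissues and Celf3 to Celf6 mainly in the nervous system. Of the latter 4 genes, only Celf4 exceeded Celf1. The base means were 4532 for Celf4, 2026 for Celf1, 1837 for Celf2, 1002 for Celf5, 562 for Celf3 and 366 for Celf6. The levels per kb of exons put Celf4 at 1086, Celf1 at 250, Celf2 at 189, Celf3 at 173, Celf5 at 170 and Celf6 at 114. Celf4 was thus 4.34 times Celf1 per kb of exons and 2.28 times per kb of coding sequence. The ratios to Celf1 were below 1 on both scales for the other neuronal members, at 0.690 for Celf3, 0.679 for Celf5 and 0.456 for Celf6 per kb of exons. Per kb of coding sequence they were 0.288, 0.642 and 0.193.

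Nova1 and Nova2 encode neuronal KH domain proteins that were found as autoantigens of a paraneoplastic movement disorder. Nova1, which is known from the spinal cord and hindbrain, had a base mean of 2952 and a level of 413 per kb of exons. Nova2, known from the neocortex, had a base mean of 1178 and a level of 141 per kb. Nova2 overlaps the antisense gene Gm26821 over 2652 bases of exons.

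**Figure D3:**
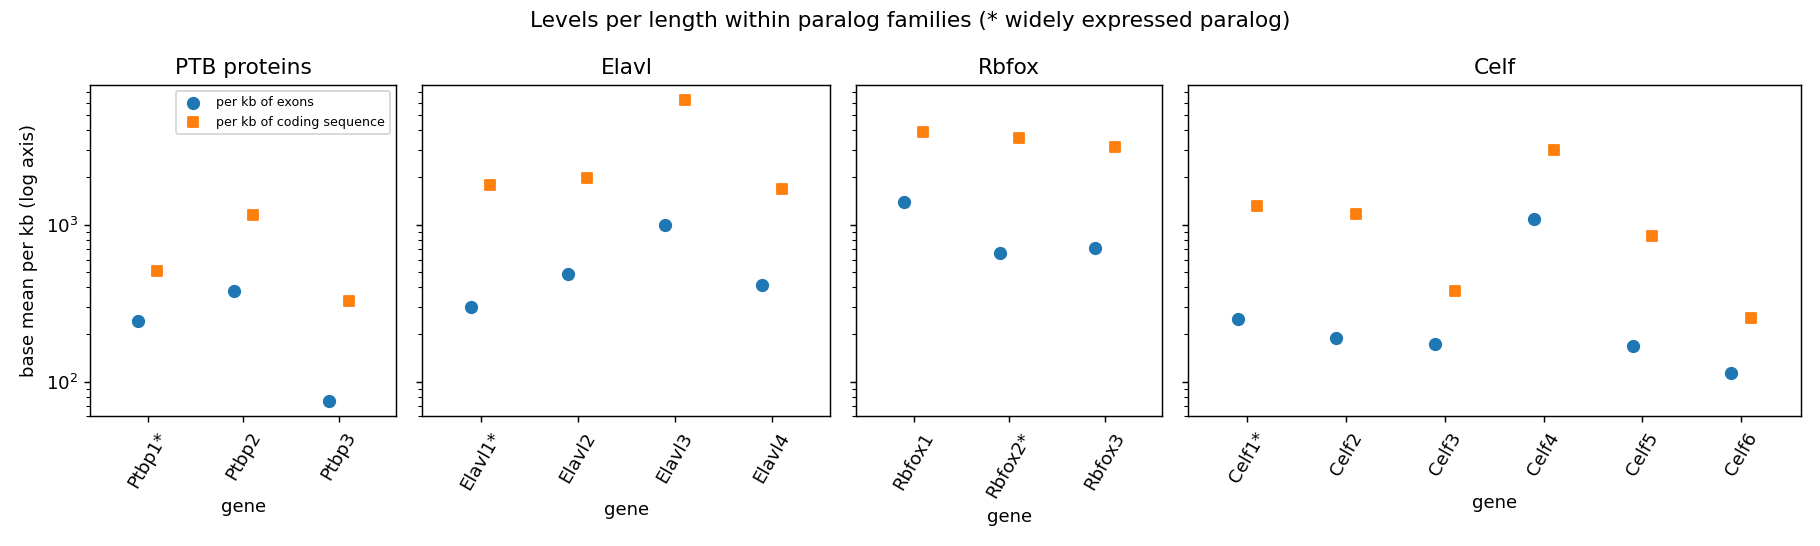
Base mean per kb (vertical log axis) of each gene of the PTB, Elavl, Rbfox and Celf families (horizontal axis), with circles per kb of exons, squares per kb of coding sequence and an asterisk at the paralog used in most tissues. Ptbp2, Elavl3, Rbfox1 and Celf4 stand highest in their families on both scales, whereas Elavl4 and Rbfox3 change sides against their starred paralog.

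Many genes of the Rbfox, Celf, Nova and Elavl families are long. Of these families, Elavl1, Celf1, Celf2 and Rbfox2 are also expressed outside neurons. The 15 genes of the Rbfox, Celf, Nova and Elavl families had a median span of 124 kb on the genome, the 44 genes of the other families 13.0 kb, and the 14642 protein-coding genes 25.2 kb. Spans over 100 kb were found for 8 of the 15 and for 0 of the 44, against 15.6% of the protein-coding genes. Rbfox1 on chromosome 16 was the longest with 1526 kb, between positions 5885355 and 7411526 of GRCm38, followed by Celf2 with 970 kb, Rbfox3 with 422 kb, Celf4 with 277 kb and Rbfox2 with 228 kb. The SR genes spanned between 3.19 and 28.1 kb. Exons make up little of such a span, as those of Rbfox1 sum to 3476 bases. The median exon length was 3841 bases for the 59 genes and 3388 bases for the protein-coding genes. These are descriptions of the annotation, with no test.

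**Figure D4:**
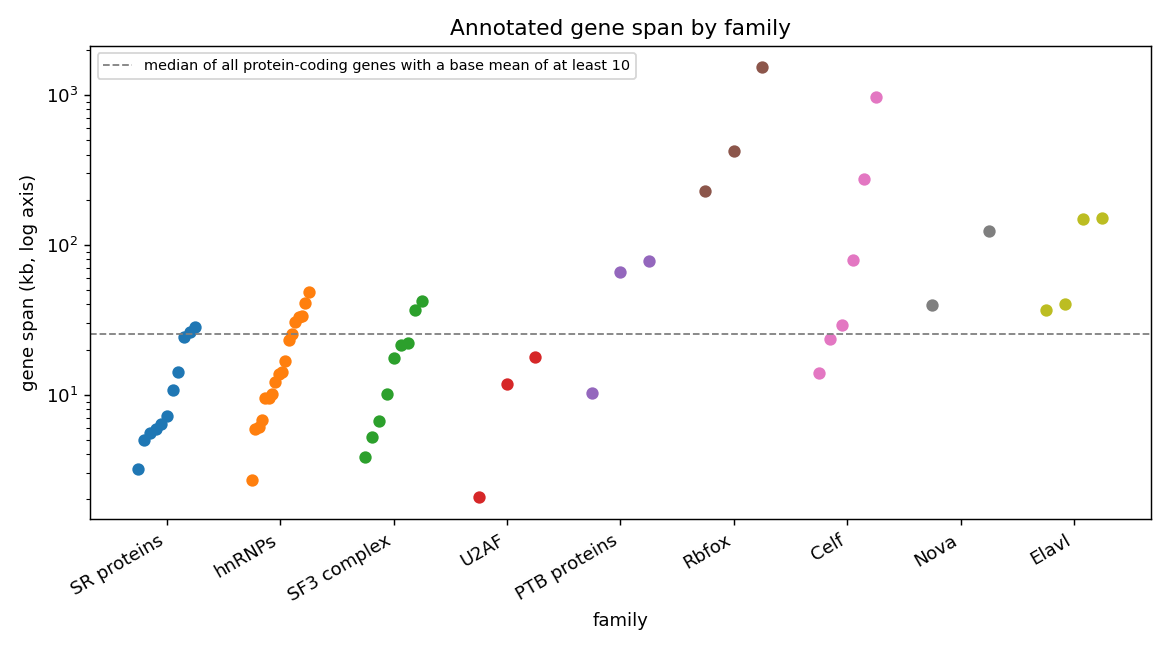
Span of each of the 59 genes on GRCm38 (vertical log axis, kb) by family (horizontal axis), 1 point a gene. The dashed line is the median of 25.2 kb over protein-coding genes at or above a base mean of 10, and the 3 Rbfox genes span 228 kb or more while the 44 genes of the SR, hnRNP, SF3, U2AF and PTB families reach at most 77.5 kb.

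The authors counted uniquely mapped reads, so sequence that a gene shares with others bears on its value. For each gene, the messenger RNA with the longest coding sequence was cut into windows of 100 bases. Windows found unchanged in a transcript of another gene were counted, leaving out genes that overlap its locus. Exons outside the chosen messenger RNA were not searched. For Hnrnpa3, 1555 windows stand against 5222 bases of exons, and for Elavl2, 1183 against 4758. None of the windows searched was shared for 43 of the 59 genes, among them the 15 Rbfox, Celf, Nova and Elavl genes. The same search was not made over all genes, so no background share stands beside this count. The share exceeded 10% for 8 genes. It was 90.2% for Hnrnpa3, whose windows recurred in 24 annotated pseudogenes, 49.5% for U2af1, 43.5% for Hnrnpf, 36.9% for Sf3b4 and 25.3% for Hnrnpk. Srsf3 had 20.7%, Srsf5 18.8% and Srsf10 13.4%. A read that lies in such a window does not map uniquely, although its mate may, so the base means of these 8 genes are uncertain. The size of this effect was not measured. The order of U2af1 behind U2af2, whose share was 4.17%, and of Hnrnpf behind Hnrnph1, with 2.61%, is given with this limit. The 2 genes left out by the rule differed in the same respect, with 42.2% for Hnrnpa1, which had a base mean of 113, and 0 for Hnrnpa2b1, which had 7211.

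**Figure D5:**
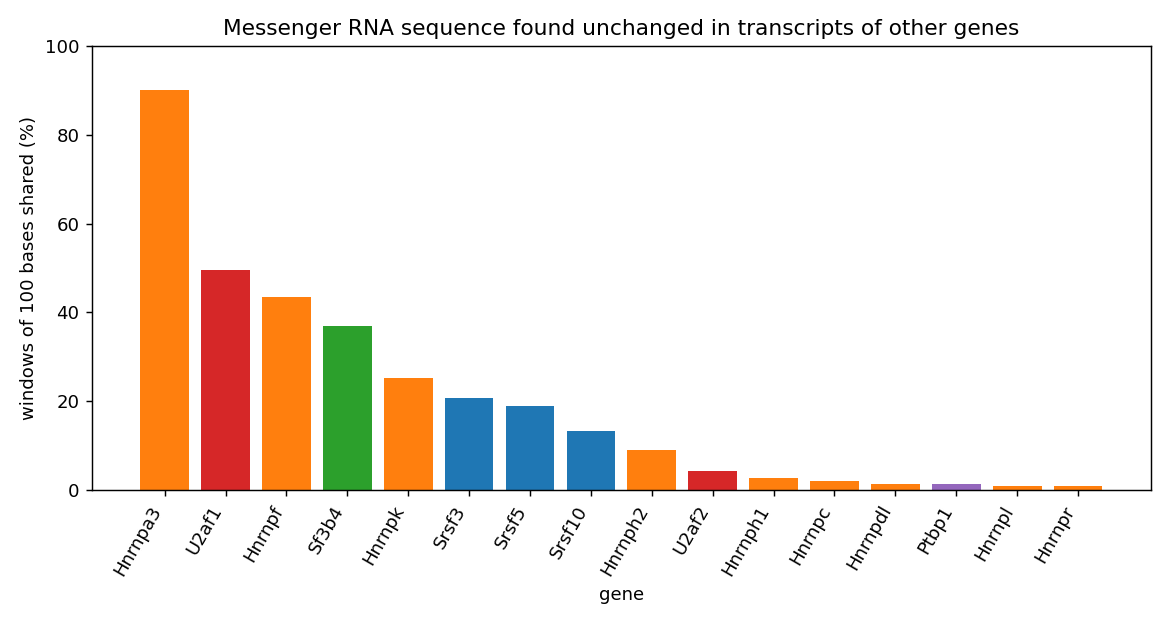
Share of 100-base windows that recur unchanged in transcripts of other genes (vertical axis, %). The 16 genes with at least 1 recurring window are shown (horizontal axis), coloured by family. Windows come from each gene's messenger RNA with the longest coding sequence. Hnrnpa3 stands apart at 90.2%, 8 genes exceed 10%, and no Rbfox, Celf, Nova or Elavl gene appears.

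Overlap with other genes is a second limit. The methods name a stranded library kit, but the strand setting of the counting is not given in the sources used here. Exons of 17 of the 59 genes overlapped an exon on the opposite strand, by over 300 bases for 9 genes (Nova2, Srsf4, Hnrnpr, Celf5, Ptbp1, Sf3a2, Hnrnpf, Hnrnpd and Hnrnpab). On the same strand, Hnrnpm overlapped March2 by 1149 bases and Hnrnpa3 a small gene by 57 bases. How reads in the opposite-strand stretches were assigned thus cannot be told, and those in same-strand stretches cannot be assigned with certainty. No share over all genes was computed for these overlaps.

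RefSeq promoters of GRCm38, from 250 bases before to 50 after the start, were found for 51 of the 59 genes and comprised 88 windows, since several genes have more than 1 start. Their median GC content was 63.2% against 60.3% for 15832 promoters of genes at or above a base mean of 10. It was 69.0% for the SR genes, 68.0% for the hnRNPs and 57.0% for the Rbfox, Celf, Nova and Elavl genes. GGGCGG on either strand, the core of a GC box, was present in 13 of 14 SR and 20 of 24 hnRNP promoters. It was present in 17 of 37 promoters of the Rbfox, Celf, Nova and Elavl genes, against 58.9% of all promoters. The 14, 24 and 37 windows come from 11, 16 and 13 genes, and the 15832 from 12482 genes. Starts of the same gene were counted separately. CCAAT was present in 47.7% of the 88 windows and 37.2% of all, and TATAAA in 10.2% and 7.45%. These are matches of letters, and no binding was measured.

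A list of 60 other splicing genes was set beside the 59. All 60 had a value, and 58 had a base mean of at least 10, with a median of 1578 for these against 1918 for the 59 genes. The medians per kb of exons were 523 and 537. The highest of the list were Snrnp70, a protein of the U1 particle, at 4677 per kb, the speckle scaffold Srrm2 at 1975 and the cytosine-binding Pcbp4 at 1730. The lowest were Mbnl3 at 0.455 per kb and the epithelial splicing factors Esrp2 at 0.759 and Esrp1 at 3.09. An NMD transcript was annotated for 33 of the 58 genes (56.9%), against 27 of the 59 (45.8%).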

How the data were processed

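RNA from the spinal cord of 5 WT and 5 SOD1 G93A mice was measured by RNA-seq. According to the methods and the submitters' processing notes, the authors filtered reads with Fastp, aligned them to mm10 with HISAT2 2.1.0, counted uniquely mapped reads with featureCounts 2.0.2 and compared the genotypes with DESeq2 (no version given). The strand setting and the annotation are not given in the sources used here. The authors deposited 1 table of results. Its base mean, a signal that the authors computed as the mean over all 10 libraries of counts divided by size factors, was used as deposited. Its other columns hold the authors' own comparison of SOD1 G93A and WT mice (log2 fold change, standard error, Wald statistic and p-values) and were not used. Depth per library and spread are thus unknown, and no test was made.

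Members and gene lists were chosen with earlier results of these data known. Every member is named, with levels per length for the extremes of each family and the paralog pairs, and the 3 highest and 3 lowest of the other splicing genes. Symbols were matched to GENCODE M21 (GRCm38) for 96.5% of the genes and for all 59 members. Promoters were RefSeq's. A percentile is the share of genes with a lower value. The window search and percentiles were tested on simulated data. Python 3.11.15, numpy 2.4.6, pandas 2.3.3, scipy 1.17.1 and matplotlib 3.10.9 were used. Some marker genes are not reported here. The alternatives were other base mean thresholds, backgrounds and lengths.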

Additional observations from a re-analysis of the deposited data

How the results depend on the processing

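The number of members was 59 at base mean thresholds of 1, 10, 20, 50 and 100. None of these thresholds could change the count, since the lowest member had 366 and the only gene under the threshold 0.296. The median percentile of the members' base mean was 82.1 and became 86.4 against all genes above 0 and 77.3 against genes of at least 100. Per length it was 80.6, 84.0 with the coding length and 77.5 with the exons of all annotated transcripts, an alternative chosen after seeing the data. The highest member per length remained the highest in 8 of 9 families with the coding length, the exception being Srsf5, which gave way to Srsf1. Over the 59 genes the orders per kb of exons and of coding sequence had a Spearman rho of 0.762, a description across genes that share the base mean.

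Of the 10 paralog ratios, 2 changed direction. Elavl4 to Elavl1 was 0.954 with the coding length and 1.13 without a length. Rbfox3 to Rbfox2 was 0.874 with the coding length and 0.728 without a length. The others kept their direction, although that of Rbfox1 to Rbfox2, close to 1 under both alternatives, is uncertain without the spread between mice. With the coding length, Ptbp2 to Ptbp1 was 2.29, Elavl2 to Elavl1 1.12, Elavl3 to Elavl1 3.51, Rbfox1 to Rbfox2 1.09, Celf3 to Celf1 0.288, Celf4 to Celf1 2.28, Celf5 to Celf1 0.642 and Celf6 to Celf1 0.193. Without a length these ratios were 2.19, 1.33, 3.95, 1.01, 0.277, 2.24, 0.495 and 0.181 in the same order. The length used in the division is the whole difference between these values.

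No paired analysis was possible because the values join all libraries in 1 mean, and leaving out single libraries could not be run for the same reason. Counts of residues in the proteins were planned and not run, since protein sequences were not used here. Depth limits no statement on an absent transcript, as every member had a base mean of at least 366.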
